A study of Mus musculus with 480 samples.

Results

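Esr1, which encodes oestrogen receptor alpha, was followed through 480 single tdTomato+ mouse lung epithelial cells. It was 1 of 53379 genes listed, and it was chosen by its counts by line, sub-type and plate, and by their relation to Scgb1a1. Those values are therefore given as a description, with no test. The cells came from 3 lines with 160 cells each. BASCs-Tracer mice carried the alleles Sftpc-DreER, Scgba1a1-CreER and R26-RSR-LSL-tdtomato, so that both recombinases are named in the genotype. Scgb1a1-TD mice carried Scgba1a1-CreER with R26-tdtomato, and Sftpc-TD mice carried Sftpc-DreER with R26-RSR-tdtomato. All 3 lines thus carried a tdTomato reporter at R26 and at least 1 recombinase with ER in its name. The sources used here give no age, sex, number of animals or inducing treatment. Each line was therefore treated as 1 sample, and cells of a line were not counted as replicates of it.

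Oestrogen receptor alpha is a nuclear receptor that binds oestradiol through its ligand-binding domain and then acts on transcription. CreER and DreER are recombinases fused to a mutated form of such a domain, which holds them inactive until tamoxifen or its active metabolite binds. Scgb1a1 encodes the secretoglobin that defines club cells of the airway, and Sftpc encodes a surfactant protein made by AT2 (alveolar type 2) cells, which secrete it into the alveoli. Bronchioalveolar stem cells (BASCs) sit where the airway meets the alveoli and are known for having both. The question behind the description was whether Esr1 reads follow the lines and cells in which the Scgb1a1 promoter drives CreER.

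The annotated gene (ENSMUSG00000019768) lies on the plus strand at chr10:4611593-5005614 of GRCm38 and spans 394022 bp, and 0 other annotated genes overlap it. GENCODE M21 lists 10 transcripts for it, of which 4 are protein-coding. The transcript used here has 10 exons and 6339 bases, of which 1800 are coding, 28.4% of its length, and 4191 lie after the stop codon. The final 300 coding bases are shown because they hold the end of the ligand-binding domain and the tail behind it, the end of the receptor from which fused recombinases take their domain. They join 65 bases of exon 9 at chr10:4997949-4998013 to 235 bases of exon 10 at chr10:5001189-5001423, and capitals mark the stop codon.
Esr1 coding end: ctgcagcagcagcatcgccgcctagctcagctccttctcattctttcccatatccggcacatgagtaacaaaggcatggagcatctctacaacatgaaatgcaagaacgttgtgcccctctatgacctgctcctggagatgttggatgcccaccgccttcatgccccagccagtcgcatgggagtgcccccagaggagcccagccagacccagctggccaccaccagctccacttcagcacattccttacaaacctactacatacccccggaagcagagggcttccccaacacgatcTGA
The closest other gene over the coding sequence was Esr2, which encodes oestrogen receptor beta. Its best match was 83.01% identical over 206 bases, and its longest run of identical bases was 17. The longest identical run shared with any of the 5 best-matching genes was 33 bases, with Mex3d. The deposited values are counts per gene, so they do not say on which exons the Esr1 reads fell. Reads of the endogenous gene and reads of a receptor domain within a recombinase transcript cannot be told apart in them. The sources used here do not name the species of the receptor domain in these alleles, and the sequences of the alleles were not analysed here.

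Values are CPM, a gene's reads scaled by the gene-assigned reads of the cell or group. A pooled CPM sums the reads of a group's cells, and its interval is an exact 95% Poisson interval. Such intervals and those of shares cover counting error only, since the libraries were amplified by PCR without molecular identifiers. Gene-assigned reads came to 127166026 for the BASCs-Tracer line, 160188769 for Scgb1a1-TD and 204741699 for Sftpc-TD, with 3379 to 3781974 per cell. Line and plate were largely confounded. Plate 1 held BASCs-Tracer cells, plate 3 Scgb1a1-TD cells and plate 5 Sftpc-TD cells, while plate 2 held 64 BASCs-Tracer and 32 Scgb1a1-TD cells, and plate 4 held 32 Scgb1a1-TD and 64 Sftpc-TD cells. The sex-linked genes also followed the lines. Pooled Xist, transcribed from the inactive X chromosome, was at 6.59 CPM in BASCs-Tracer and 4.05 CPM in Scgb1a1-TD, against 211 CPM in Sftpc-TD. The Y-linked Eif2s3y was at 84.8 CPM in BASCs-Tracer and 74.8 CPM in Scgb1a1-TD, against 0.0293 CPM in Sftpc-TD. By medians, the AT2 and club labels went with their markers, but some cells labelled ciliated had more reads of club or AT2 markers than of ciliated ones. No marker list was set for BASCs. The 10 AT2 markers summed to a median of 344598 CPM in BASCs-Tracer BASCs and 338639 CPM in Sftpc-TD AT2 cells, and the 10 club markers to 321031 CPM in Scgb1a1-TD club cells. In the 11 Sftpc-TD BASCs the club markers had a median sum of 3009 CPM, beside 1611 CPM in the AT2 cells of that line. In Scgb1a1-TD that median was 3016 CPM in BASCs, below the 10738 CPM of the cells labelled ciliated. In BASCs-Tracer it was 6777 CPM in BASCs and 2713 CPM in the 6 AT2 cells, near the BASCs of the other lines. Summed leukocyte and mesenchymal markers had a median of 0 in each line and sub-type, but single cells held many. The 6 leukocyte markers reached 100 CPM or more in 2 BASCs-Tracer BASCs, 2 of 97 Scgb1a1-TD club cells, 1 Sftpc-TD AT2 cell and 1 of 11 Sftpc-TD BASCs, with up to 3973 CPM in BASCs-Tracer and 6130 CPM in Sftpc-TD. The mesenchymal markers reached 1675 CPM in a BASCs-Tracer BASC. Recombinase alleles, sex-linked expression and the animal cannot be told apart between Sftpc-TD and the other lines.

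Esr1 reads lay almost wholly in the lines that carry Scgba1a1-CreER. Of 42557 Esr1 reads in all cells, 99.993% came from BASCs-Tracer and Scgb1a1-TD cells. BASCs-Tracer had 16593 reads, a pooled level of 130.5 CPM (128.5 to 132.5), and 85% of its 160 cells had a read (Clopper-Pearson 95% interval 78.5 to 90.1%). Scgb1a1-TD had 25961 reads, a pooled level of 162 CPM (160.1 to 164), and 77.5% of its 160 cells had a read. Sftpc-TD had 3 reads, a pooled level of 0.0147 CPM (0.00302 to 0.0428), and 3 of its 160 cells had a read (1.88%). Per cell, Esr1 ran from 0 over a median of 5.21 to 1555 CPM in BASCs-Tracer and from 0 over 5.56 to 2268 CPM in Scgb1a1-TD. In Sftpc-TD it ran from 0 over a median of 0 to 0.825 CPM. The ranges of the 2 lines with Scgba1a1-CreER overlapped almost wholly, and the highest Sftpc-TD cell lay below the median of both.

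**Figure D1:**
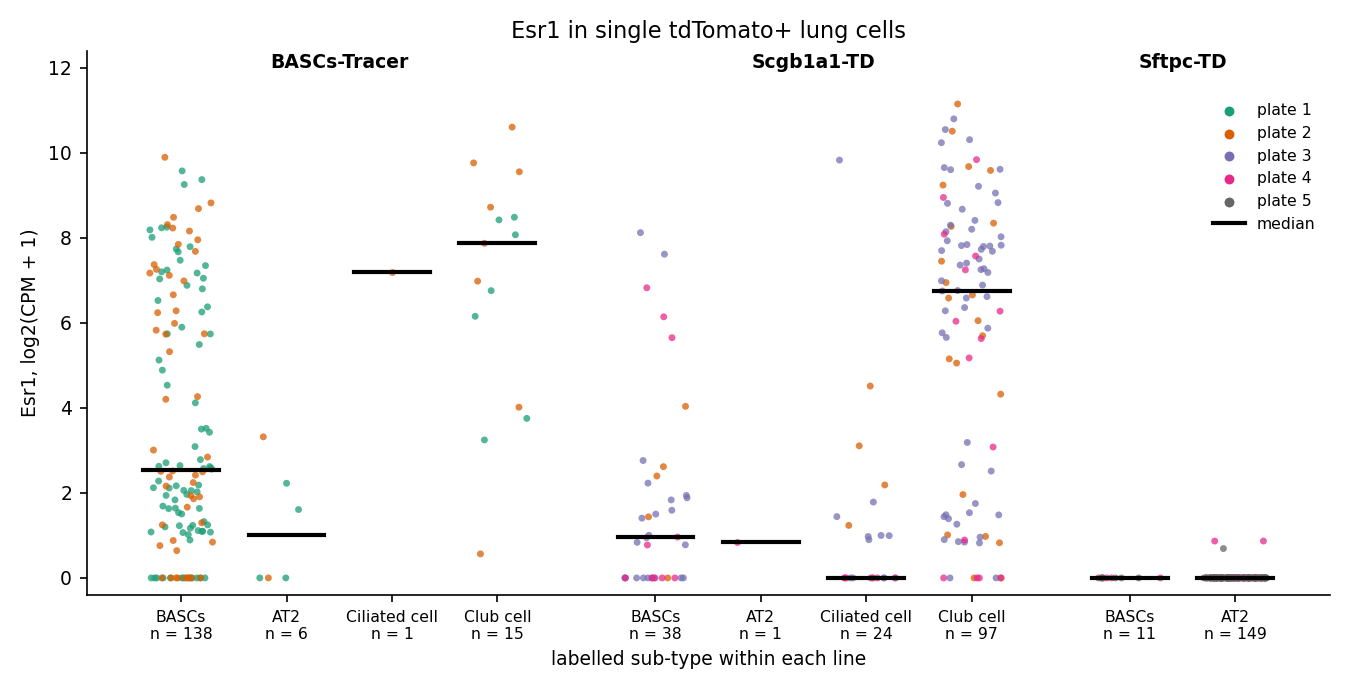
Esr1 as log2(CPM + 1) in each cell (1 point per cell, coloured by plate), with cells grouped along the horizontal axis by line and labelled sub-type and the median of each group as a black line. Cells of BASCs-Tracer and Scgb1a1-TD reach up to 1555 and 2268 CPM, while 98.1% of the 160 Sftpc-TD cells lie at 0.

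Among the labelled sub-types, Esr1 was highest in club cells, the secretory cells of the small airway. In BASCs-Tracer the BASCs, 85 on plate 1 and 53 on plate 2, pooled to 96.9 CPM (95.03 to 98.8) and ran from 0 over a median of 4.80 to 950.2 CPM, with a read in 84.8% of cells. The 15 club cells of the same line pooled to 421 CPM (410.2 to 431.4) and ran from 0.480 over a median of 233 to 1555 CPM, with a read in all 15. A single club cell on plate 2 held 39.4% of these reads, and the others pooled to 327 CPM, outside that counting interval. On plate 2 it held 46.3%, and the other club cells there pooled to 444 CPM. The pooled ratio of BASCs over club cells was 0.230, which is 4.34-fold lower in BASCs (counting interval 4.21 to 4.48). The direction was the same on both plates, where BASCs were 2.52-fold lower on plate 1 and 3.97-fold lower on plate 2. The ranges overlapped, since the lowest club cell lay below the lower quartile of BASCs, 1.31 CPM.

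In Scgb1a1-TD, pooled Esr1 was likewise lower in BASCs and in ciliated cells than in club cells, and 1 cell set the level of the ciliated cells. The 38 BASCs pooled to 21.2 CPM (19.8 to 22.7) and ran from 0 over 0.938 to 277 CPM, with a read in 60.5% of cells. A single BASC on plate 3 held 38.7% of these reads, and the other 37 pooled to 13.4 CPM. The 97 club cells pooled to 246 CPM (243.2 to 249.4) and ran from 0 over 107.4 to 2268 CPM, with a read in 91.8% of cells. BASCs were 11.6-fold lower than club cells when pooled (10.8 to 12.44), by 98.9-fold on plate 2 with 5 BASCs, 12.8-fold on plate 3 with 23 and 5.98-fold on plate 4 with 10. Without the BASC with most reads they were 18.4-fold lower over all plates and 31.4-fold lower on plate 3. The 24 ciliated cells, whose motile cilia move the airway fluid, pooled to 53.8 CPM and ran from 0 over a median of 0 to 908.1 CPM, with a read in 11 cells. Of their 1184 reads, 98.5% came from a single cell on plate 3, and the other 23 cells pooled to 0.868 CPM. That cell had 213332 CPM of Scgb1a1, and the 10 club markers summed to 255846 CPM in it. Its 10 ciliated markers summed to 10028 CPM, the lowest of the 24 cells labelled ciliated, whose median was 29431 CPM. With that cell, ciliated cells were 4.58-fold lower than club cells in pooled Esr1. Without it, the ratio of ciliated over club cells was 0.00352. Whether that library held more than 1 cell was not tested.

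Few cells carried the remaining sub-type labels in these lines. The 6 BASCs-Tracer AT2 cells held 11 Esr1 reads between them in 3 cells, and pooled to 2.20 CPM (1.10 to 3.94). Its 1 ciliated cell had 146.4 CPM of Esr1, 72979 CPM of Scgb1a1 and 95578 CPM of Sftpc. Its AT2 markers summed to 234934 CPM and its ciliated markers to 12625 CPM. The 1 AT2 cell of Scgb1a1-TD had 1 read, 0.805 CPM.

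In Sftpc-TD, cells with the same sub-type labels had almost no Esr1 reads. Its AT2 cells, 60 on plate 4 and 89 on plate 5, held 3 reads, 1 in each of 3 cells, and pooled to 0.0156 CPM (0.00322 to 0.0456). Its 11 BASCs held 0 reads in 12569714 gene-assigned reads, and 3 reads over the group would be 0.239 CPM. With 0 of 11 cells, a share of up to 27.3% with a read (3 cells of the 11) remains possible by counting error alone. BASCs-Tracer BASCs were 6206-fold above Sftpc-TD AT2 cells, with a counting interval of 2123 to 30100 that reflects the 3 reads below, and the ratio was 12318 without plate 4 and 3150 without plate 5. Against the 11 Sftpc-TD BASCs, pooled Esr1 was at least 406-fold higher in BASCs-Tracer BASCs and at least 88.96-fold higher in Scgb1a1-TD BASCs. The bounds set 3 reads over the group in place of 0. Without plate 4 they were 244 for BASCs-Tracer and 49.6 for Scgb1a1-TD, and without the Scgb1a1-TD BASC with most reads the second was 56.2. Pooled leukocyte markers differed between these groups, at 48.3 CPM in BASCs-Tracer BASCs, 0.151 CPM in Scgb1a1-TD BASCs, 290 CPM in Sftpc-TD BASCs and 4.15 CPM in Sftpc-TD AT2 cells. Few cells held most of these reads. Without the cells at 100 CPM or more, the markers pooled to 2.57 CPM in BASCs-Tracer BASCs, 0.417 CPM in Sftpc-TD BASCs and 0.368 CPM in Sftpc-TD AT2 cells. In BASCs-Tracer BASCs, 4 of 5 measured leukocyte markers were 2-fold or more higher than in those AT2 cells, where 9.9% of all genes were. Against the Sftpc-TD BASCs 6 of 6 were lower, where 17.7% of all genes were. Both counts include the few cells with most of these reads. Without the cells at 100 CPM or more of these markers, the Esr1 ratio to the AT2 cells was 6145, and the Esr1 bounds were 387 and 84.8. In BASCs-Tracer AT2 cells, pooled Esr1 was 141.1-fold that in Sftpc-TD AT2 cells (37.3 to 788). Of its 11 reads, 7 came from 1 cell, without which the ratio was 60.8, and without plate 5 it was 71.6. The same labelled sub-type thus had different Esr1 levels in different lines.

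BASCs also differed between the 2 lines that share Scgba1a1-CreER. Pooled Esr1 was 4.56-fold higher in BASCs-Tracer BASCs than in Scgb1a1-TD BASCs (4.25 to 4.90), and 7.23-fold without the Scgb1a1-TD BASC with most reads. On plate 2, which held both, it was at 137.97 CPM in 53 BASCs-Tracer BASCs and 2.61 CPM in 5 Scgb1a1-TD BASCs, where it rested on 5 reads, a ratio of 52.8 (22.6 to 163). Scgb1a1 itself differed between these BASCs in the same direction, with a median of 5394 CPM in BASCs-Tracer and 2014 CPM in Scgb1a1-TD. Its part in the Esr1 difference was not tested. Of 5 measured leukocyte markers all 5 were 2-fold or more higher in BASCs-Tracer BASCs, where 21.1% of all genes were. Without the 2 cells at 100 CPM or more of these markers, the markers pooled to 2.57 CPM in BASCs-Tracer BASCs, beside 0.151 CPM in Scgb1a1-TD BASCs. The Esr1 ratio was then 4.57.

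Plate 4 held cells of both kinds of line side by side. There the 15 Scgb1a1-TD club cells had 2485 Esr1 reads (147.2 CPM) and the 60 Sftpc-TD AT2 cells had 2 (0.0308 CPM), a ratio of 4787 (1324 to 39552). Over all plates the same pair had a ratio of 15777 (5398 to 76507). The 10 Scgb1a1-TD BASCs on plate 4 had 303 Esr1 reads (24.6 CPM), and the 4 Sftpc-TD BASCs on it had 0, at least 41.2-fold higher in Scgb1a1-TD. Sftpc-TD cells thus had 0.0717% of the Esr1 reads of that plate, beside 1.55% of its Scgb1a1 reads. The difference between the lines was therefore present within the plate that held both.

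Within a sub-type the cells did not share a common Esr1 level. In Scgb1a1-TD club cells, 48 of 97 had 100 or more Esr1 reads, 18 had 10 to 99, 5 had 3 to 9, 18 had 1 to 2, and 8 had 0. The 3-to-9 class held fewer cells than the classes on both sides of it. BASCs-Tracer BASCs had 28 cells at 100 or more, 23 at 10 to 99, 18 at 3 to 9, 48 at 1 to 2, and 21 at 0. Their most frequent class was thus 1 to 2 reads, and the 3-to-9 class again held fewer cells than both beside it. The classes differ in width, and read numbers also depend on each cell's depth. These counts therefore do not show separate groups of cells. In Scgb1a1-TD BASCs, 3 of 38 reached 100 reads and 15 had 0. Across the study the 90 cells with 100 or more reads held 94.6% of all Esr1 reads.

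**Figure D2:**
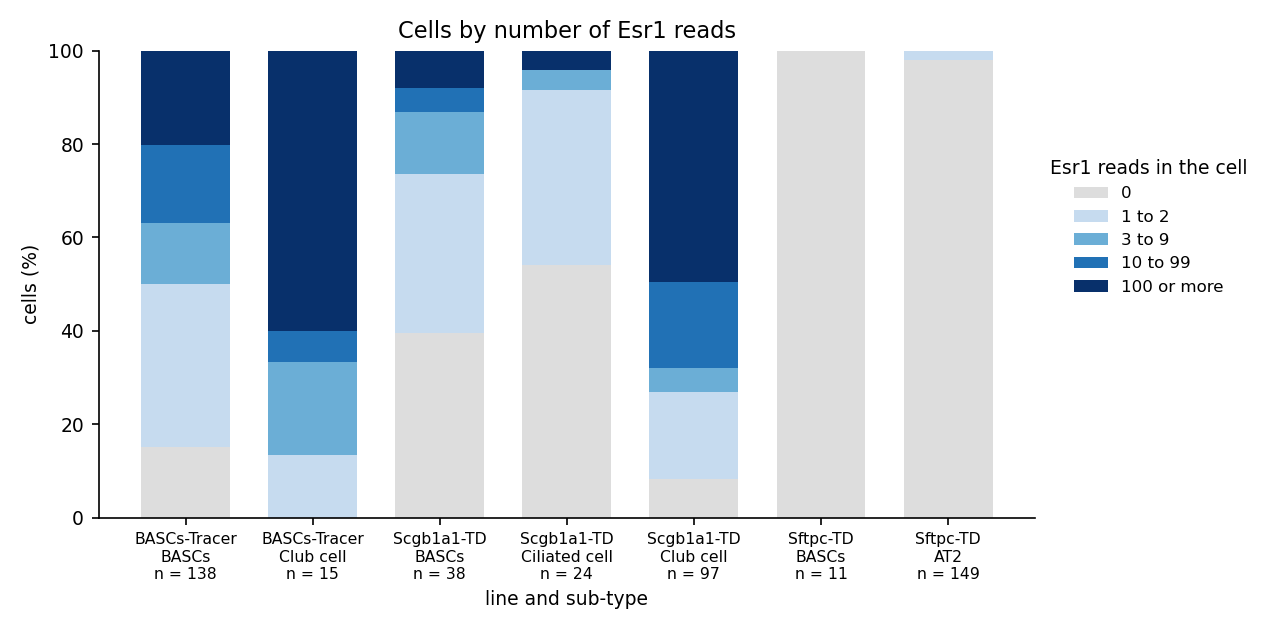
Share of cells (%) by the number of Esr1 reads in the cell, stacked for 7 groups of line and sub-type; darker blue stands for more reads and grey for 0. Cells with 100 or more reads make up 20.3% of BASCs and 60% of club cells in BASCs-Tracer, 7.89% of BASCs and 49.5% of club cells in Scgb1a1-TD, and 0% in Sftpc-TD.

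Many cells counted as having Esr1 had only 1 or 2 reads. Cells with 1 to 2 Esr1 reads made up 34.4% of plate 1, 29.7% of the BASCs-Tracer and 31.3% of the Scgb1a1-TD cells of plate 2, and 28.1% of plate 3. On plate 4 they were 12.5% of Scgb1a1-TD cells and 3.13% of Sftpc-TD cells, and on plate 5 they were 1.04%. In Scgb1a1-TD ciliated cells, a read was found in 4 of 5 cells on plate 2, in 7 of 13 on plate 3 and in 0 of 6 on plate 4. A share with 1 or 2 reads therefore moved with the plate as well as with the sub-type, and whether such reads come from the cell or from other wells of its plate was not tested. When each cell was thinned to 100000 reads, the share with a read was 51.9% in BASCs and 84.6% in club cells of BASCs-Tracer. It was 18.9% in BASCs, 20.8% in ciliated cells and 72.3% in club cells of Scgb1a1-TD, and 0% in Sftpc-TD. The shallower cells left out were 7 of BASCs-Tracer, 4 of Scgb1a1-TD and 1 of Sftpc-TD.

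Pooled Esr1 was higher in ranges with more Scgb1a1 in both lines with Scgba1a1-CreER, apart from the lowest range of BASCs-Tracer, where 1 cell held most reads, and from ranges within single plates and sub-types given here. In BASCs-Tracer, pooled Esr1 was 52.5 CPM in the 86 cells with 1000 to 10000 CPM of Scgb1a1, 231.5 CPM in the 45 cells with 10000 to 100000 CPM, and 408 CPM in the 12 cells above that. In the 17 cells with 100 to 1000 CPM of Scgb1a1 it was 71.4 CPM, but 1459 of their 1482 reads came from 1 BASC on plate 2, with 642 CPM of Scgb1a1. The 10 cells of that range on plate 1 pooled to 1.12 CPM. In Scgb1a1-TD the levels over the same ranges were 0.933 CPM in 23 cells, 10.8 CPM in 34, 150.5 CPM in 3, and 253 CPM in 99. Of the 99 cells 97 were club cells, the lower ranges held none, and the 3 cells were BASCs of plate 3. The step to the top range was thus largely one from other sub-types to club cells. The 10.8 CPM rested on plate 4, with 304 of the 332 reads. On plate 3 the level was 1.37 CPM in the 16 cells with 100 to 1000 CPM of Scgb1a1 and 0.814 CPM in the 15 with 1000 to 10000 CPM. In BASCs-Tracer club cells it was 450.3 CPM in the 6 cells below 100000 CPM of Scgb1a1 and 396 CPM in the 9 above. Those 9 were among the 12 cells of that line's top range. Its BASCs alone pooled to 54.2, 184 and 448 CPM over the 3 upper ranges, the last with 3 cells.

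In Sftpc-TD, no cell had more than 1 Esr1 read at any level of Scgb1a1. Its 37 cells with 1000 to 10000 CPM of Scgb1a1 had 0 Esr1 reads, where 3 reads would be 0.0580 CPM, and its 3 reads came from the 80 cells with 100 to 1000 CPM. Of the 4 Sftpc-TD cells above 10000 CPM, a BASC had 130015 CPM of Scgb1a1 and 0 Esr1 reads in 494705 gene-assigned reads, and an AT2 cell had 50094 CPM and 0 in 2032262. Scgb1a1-TD club cells started at 113019 CPM of Scgb1a1, so that BASC fell within their range of Scgb1a1. Sftpc, the gene whose promoter is named for DreER, pooled to 160638 CPM in Sftpc-TD AT2 cells, and their Esr1 stayed at 0.0156 CPM beside it.

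**Figure D3:**
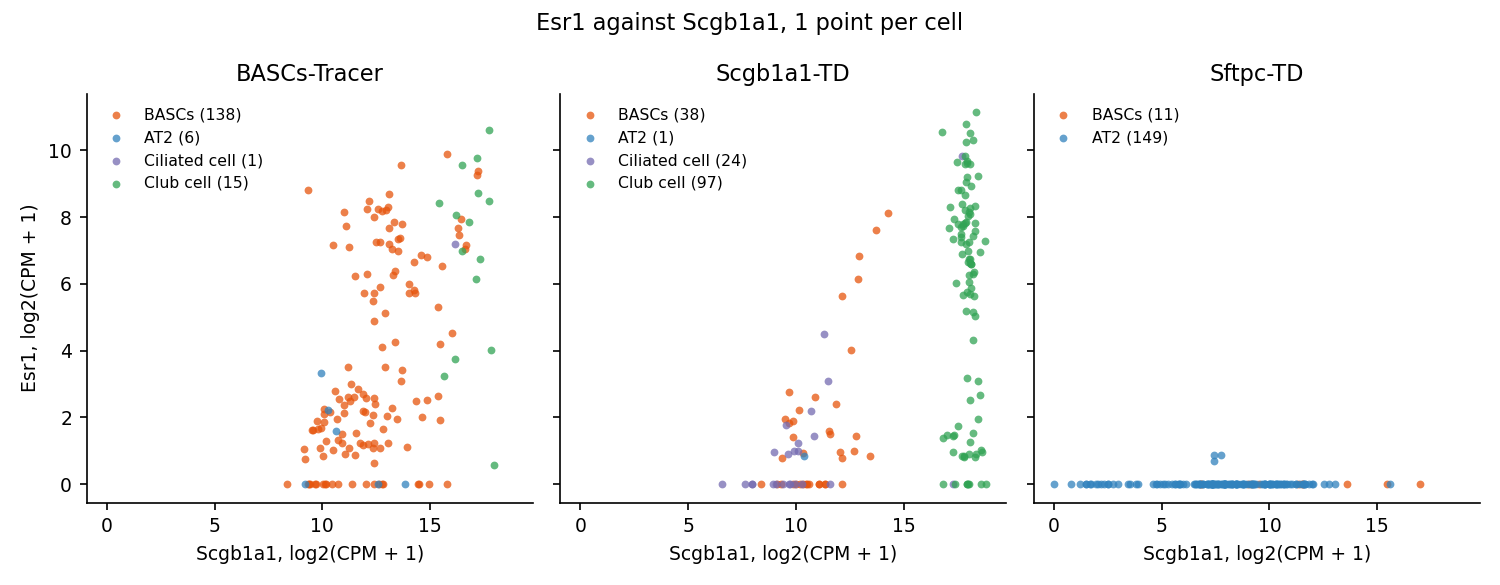
Esr1 against Scgb1a1, both as log2(CPM + 1), with 1 point per cell, 1 panel per line and colours for labelled sub-types. In BASCs-Tracer and Scgb1a1-TD, Esr1 tends to be higher in BASCs with more Scgb1a1 (rank correlations of 0.47 and 0.42) and club cells spread from 0 to 2268 CPM, whereas Sftpc-TD cells lie at or near 0 over their whole range of Scgb1a1, up to 130015 CPM.

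Cell by cell, the rank correlation of Esr1 with Scgb1a1 was 0.52 over the 160 cells of BASCs-Tracer and 0.50 over the 160 of Scgb1a1-TD (Spearman's coefficient, a description over cells that share a line, plates and library totals). Within BASCs-Tracer BASCs it was 0.47, at 0.57 on plate 1 and 0.33 on plate 2. Within Scgb1a1-TD BASCs it was 0.42 over 38 cells, but 0.14 over the 23 on plate 3 and 0.74 over the 10 on plate 4. Ciliated cells of Scgb1a1-TD gave 0.52 over 24 cells and 0.15 over the 13 on plate 3.

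Within club cells the coefficients were near 0 or below it. The rank correlation was 0.06 over the 15 of BASCs-Tracer and -0.12 over the 97 of Scgb1a1-TD, and on plates 2, 3 and 4 of Scgb1a1-TD it was -0.09, -0.12 and -0.23. All 97 had over 100000 CPM of Scgb1a1, so the range of Scgb1a1 within them was narrower than across sub-types. Taking Scgb1a1 out of each cell's total changed the club cell value to -0.09. Esr1 in these cells ran from 0 to 2268 CPM at Scgb1a1 levels between 113019 and 465043 CPM.

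The genes whose levels were most like Esr1 were sought over 16 pools of line, sub-type and plate, among 8352 genes with 50 CPM or more in a pool, by Pearson's r of log2(CPM + 1). The leading gene was Pigr, the receptor that carries IgA across epithelium, with r of 0.92. Its pooled level was 179.7 CPM in BASCs-Tracer BASCs, 585 CPM in Scgb1a1-TD club cells and 1.91 CPM in Sftpc-TD AT2 cells. Wfdc1, a secreted protein with a whey acidic domain, followed at 0.90, Cyp1b1, a cytochrome P450 that hydroxylates oestradiol, at 0.87, and Krtap17-1 at 0.86. Scgb1a1 ranked 5 with r of 0.85. Plpp3, Scgb3a2, Hp, Cyp2f2 and Gabrp completed the named genes, at 0.85, 0.85, 0.84, 0.83 and 0.83. Sftpc had r of -0.31. Without the Sftpc-TD pools, r was 0.87 for Pigr and 0.91 for Scgb1a1, but 0.75 for Scgb3a2 and 0.69 for Cyp2f2. Over all 16 pools, club cell genes such as Scgb3a2 and Cyp2f2 are thus among those with the most similar levels. For these 2 genes the likeness was weaker without Sftpc-TD, and the pools share lines and plates.

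Among single Scgb1a1-TD club cells another set of genes ranked highest. Spearman's coefficient with Esr1 was averaged over 3 plates for 7548 genes, of which the middle 90% lay between -0.19 and 0.23. Rgcc, a regulator of the cell cycle, had a mean coefficient of 0.47 and values of 0.68, 0.25 and 0.48 on plates 2, 3 and 4. Ager, a receptor best known from alveolar type 1 cells, had 0.46 with 0.59, 0.29 and 0.50. Rdh13, Cxcl1, Zfand6, Pgpep1, Fhl1, Marc2 and Fam168b followed at 0.44 to 0.40. Scgb1a1 ranked 6836 with -0.15. For both Rgcc and Ager, plate 3 with its 60 cells gave the lowest of the 3 values. With this many genes ranked the highest values are a description of these cells only.

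Of the other genes on the list of steroid and oestrogen receptors, Esr2, Esrra and Gper1 were also higher in some groups with Scgba1a1-CreER than in Sftpc-TD, each with a read in few cells. Esr2 pooled to 1.04 CPM in BASCs-Tracer BASCs, 6.08 CPM in Scgb1a1-TD ciliated and 1.86 CPM in Scgb1a1-TD club cells, and 0.135 CPM in Sftpc-TD AT2 cells, with a read in at most 12.5% of a group. Esrra, an orphan receptor related to Esr1, had 8.58 CPM in BASCs-Tracer BASCs and 7.70 CPM in Scgb1a1-TD BASCs, with a read in 10.1% and 5.26% of them, against 5.07 CPM in Sftpc-TD AT2 cells and 0 reads in the 11 Sftpc-TD BASCs. Pgr, the progesterone receptor, had 0 reads in all 7 groups shown. Nr3c1, the glucocorticoid receptor, was read in each group, with 85.2 CPM in BASCs-Tracer BASCs, 44.1 CPM in Scgb1a1-TD club cells and 77.4 CPM in Sftpc-TD AT2 cells. Nr3c2, the mineralocorticoid receptor, had 11.4 CPM in these BASCs, 35.2 CPM in these club cells and 31.1 CPM in these AT2 cells. Gper1, a membrane receptor that responds to oestradiol, had 9.33 CPM in Scgb1a1-TD club cells, with a read in 8.25% of them, 0.0252 CPM in Scgb1a1-TD BASCs and 0 reads in its ciliated cells, and 0.0208 CPM in Sftpc-TD AT2 cells. Esrrg, a relative of Esrra, had 36.9 CPM in Scgb1a1-TD ciliated cells and 0.350 CPM in its club cells. In Sftpc-TD it was lower as well, at 0.0156 CPM in AT2 cells and 0 CPM in BASCs.

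**Figure D4:**
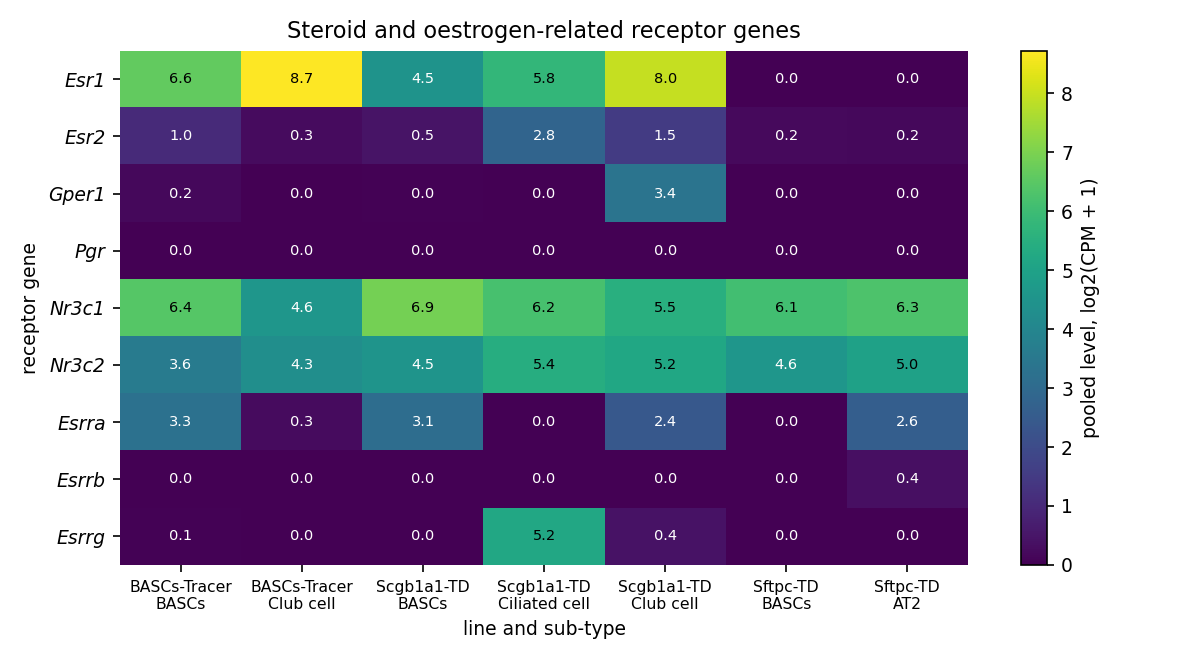
Pooled level of 9 steroid and oestrogen-related receptor genes (rows) in 7 groups of line and sub-type (columns), as log2(CPM + 1), not divided by gene length, so that colours are to be read along a row. Esr1 has 421 CPM in BASCs-Tracer club cells and 0 in Sftpc-TD BASCs, whereas Nr3c1 is read in all 7 groups.

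Among all genes Esr1, chosen with this contrast in view, had the highest log2 ratio of 10507 genes with 5 CPM or more in either group, with 1 CPM added, in BASCs-Tracer BASCs over Sftpc-TD AT2 cells. In that comparison 9.9% of genes were 2-fold or more higher and 9.17% were 2-fold or more lower. Of the 10 receptor genes 4 were measured, and Esr1 was the 1 past 2-fold higher while Nr3c2 was the 1 past 2-fold lower. Of 18 measured coregulators and chaperones of the receptor, 0 were past 2-fold higher and 1 lower. Of 10 measured genes known to respond to oestrogen in reproductive tissue, 2 were past 2-fold higher and 0 lower. These were Myc, at 59.6 CPM in BASCs against 17.7 CPM in AT2 cells, and Igfbp4, at 6.54 CPM in BASCs against 1.51 CPM in AT2 cells. Of 8 measured genes of oestrogen metabolism, 2 were higher and 0 lower, Cyp1b1 at 21.1 CPM in BASCs against 0.109 CPM in AT2 cells and Cyp1a1 at 7.49 CPM in BASCs against 2.28 CPM in AT2 cells. The median log2 ratios of the 4 lists were 0.40, 0.09, 0.35 and 0.20, beside 0.01 for all genes measured. The receptor list holds Esr1 itself. Wherever Esr1 is measured, here and in the pairs below, the receptor counts and medians thus partly restate the choice of this gene.

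For Scgb1a1-TD club cells over Sftpc-TD AT2 cells, Esr1 ranked 12 of 10794, and 15.8% of genes were 2-fold or more higher and 19.5% lower. Here 2 of 5 measured receptors were higher, Esr1 and Gper1, and 0 lower. Of 18 coregulators and chaperones 0 were higher and 5 lower, among them Ep300, an acetyltransferase, at 22.2 CPM in club against 82.6 CPM in AT2 cells, and the chaperone Hsp90aa1 at 395 CPM in club against 1036 CPM in AT2 cells. Of 11 oestrogen-responsive genes 3 were higher and 1 lower. Ltf, which encodes lactoferrin, was at 166 CPM in club against 0.0260 CPM in AT2 cells, and complement C3 was at 456 CPM in club against 120.9 CPM in AT2 cells. Ccnd1, which encodes a cyclin, was at 282 CPM in club against 87.2 CPM in AT2 cells. The lower one was Areg, an EGF receptor ligand, at 2.71 CPM in club against 65.1 CPM in AT2 cells. Of 7 metabolism genes 1 was higher, Cyp1b1 at 98.5 CPM in club against 0.109 CPM in AT2 cells, and 2 were lower. The median log2 ratios were 0.17, 0.07, -0.02 and 0.12, beside -0.04 for all genes. Both comparisons use the same AT2 cells, and club and AT2 cells differ in many genes.

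Between BASCs-Tracer BASCs and Sftpc-TD BASCs, Esr1 ranked 2 of 10581, and 36.2% of genes were 2-fold or more higher and 17.7% lower, with only 11 cells in Sftpc-TD. Of 4 receptors 2 were higher and 0 lower, Esr1 and Esrra. Of 18 coregulators and chaperones 2 were higher and 5 lower, of 10 oestrogen-responsive genes 2 and 0, and of 8 metabolism genes 4 and 0. The list medians were 1.81, -0.07, 0.30 and 1.12, beside 0.35 for all genes, and that of the receptors was 1.66 with the 2 genes at 0 reads in Sftpc-TD set to 3 reads over the group. Esr1 is 1 of the 4 receptors behind that median, which was not taken without it. Between BASCs and club cells within Scgb1a1-TD, where 17.2% of genes were higher and 24.7% lower, 1 of 5 receptors was higher and 2 were lower. Of 11 oestrogen-responsive genes 1 was higher and 4 lower, with Ltf at 0.176 CPM in BASCs and 166 CPM in club cells. Of 8 metabolism genes 3 were higher and 1 lower, Cyp1b1 at 8.65 CPM in BASCs and 98.5 CPM in club cells.

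In the remaining pairs the lists were counted in the same way. Between BASCs-Tracer and Scgb1a1-TD BASCs, where 21.1% of genes were 2-fold or more higher and 10.2% lower, 1 of 4 measured receptors was higher, Esr1, and 0 were lower. Here 5 of 11 oestrogen-responsive genes were higher and 0 lower, with a median log2 ratio of 0.76 beside 0.18 for all genes. Among 18 coregulators and chaperones 1 was higher and 1 lower, and among 8 metabolism genes 1 and 1. Between ciliated and club cells within Scgb1a1-TD, where 43% were higher and 14.9% lower, 2 of 6 receptors were higher and 2 were lower. Among 17 coregulators and chaperones 7 were higher and 2 lower, among 12 oestrogen-responsive genes 4 and 4, and among 7 metabolism genes 0 and 2. Between BASCs and club cells within BASCs-Tracer, where 31.8% were higher and 21% lower, 2 of 4 receptors were higher and 1 was lower. Among 17 coregulators and chaperones 4 were higher and 3 lower, among 11 oestrogen-responsive genes 1 and 3, and among 8 metabolism genes 3 and 1. For Scgb1a1-TD BASCs over Sftpc-TD BASCs, with 32.3% of genes higher and 23.6% lower, 2 of 4 receptors were higher and 0 lower. Here 6 of 8 metabolism genes were higher and 0 lower, with a median log2 ratio of 1.73 beside 0.11 for all genes. Among 19 coregulators and chaperones 3 were higher and 6 lower, and among 10 oestrogen-responsive genes 1 and 2. For BASCs-Tracer AT2 cells over Sftpc-TD AT2 cells, with 21.5% higher and 40.1% lower, 1 of 3 receptors was higher and 1 was lower. Esr1 stayed under 5 CPM in both AT2 groups and is in neither receptor count. Among 18 coregulators and chaperones 4 were higher and 4 lower, among 9 oestrogen-responsive genes 1 and 0, and among 6 metabolism genes 0 and 1.

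Of the genes beside Esr1 on chromosome 10, the nearest on each side were highest in ciliated cells among the 7 groups shown. Ccdc170, whose annotated end lies 49362 bp before Esr1, had 0.188 CPM in BASCs-Tracer BASCs, 274 CPM in Scgb1a1-TD ciliated cells and 0.196 CPM in Scgb1a1-TD club cells, and 0.0312 CPM in Sftpc-TD AT2 cells. Syne1, which encodes a nuclear envelope protein and ends 15303 bp behind Esr1, had 193 CPM in Scgb1a1-TD ciliated and 3.32 CPM in Scgb1a1-TD club cells, 19.2 CPM in BASCs-Tracer BASCs and 1.51 CPM in Sftpc-TD AT2 cells. Of the 10 nearest protein-coding genes, 5 were measured in BASCs-Tracer BASCs over Sftpc-TD AT2 cells, with 2 past 2-fold higher and 0 lower, where 9.9% of all genes were higher. In BASCs-Tracer BASCs over Scgb1a1-TD BASCs, 5 of 5 were higher, in the direction of Esr1, where 21.1% of all genes were, with a median log2 ratio of 1.40 beside 0.18 for all genes. These were Syne1, Armt1, Zbtb2, Rmnd1 and Akap12. In BASCs-Tracer BASCs over Sftpc-TD BASCs, 3 of 6 were higher and 1 was lower, where 36.2% of all genes were higher and 17.7% lower. In Scgb1a1-TD BASCs over those BASCs 0 of 4 were higher and 2 were lower, where 32.3% of all genes were higher and 23.6% lower. In Scgb1a1-TD club cells over Sftpc-TD AT2 cells, 0 of 3 were higher and 1 was lower, where 15.8% of all genes were higher and 19.5% lower. Within Scgb1a1-TD, 1 of 2 was higher in BASCs than in club cells and 0 were lower, where 17.2% of all genes were higher and 24.7% lower. Within BASCs-Tracer 4 of 5 were higher and 1 was lower, where 31.8% of all genes were higher and 21% lower. Esr1 was lower in BASCs of both lines. Both Ccdc170 and Syne1 were higher in the ciliated than in the club cells of Scgb1a1-TD, whereas pooled Esr1 was lower.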

How the data were processed

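The values deposited by the authors are raw counts, 1 per gene and cell, and were not scaled. Per the submitters' processing notes it was made with HISAT2 and HTSeq on GRCm38, with no versions given there. Per the labels' protocols, lungs were digested, cells were sorted singly, and PCR-amplified cDNA went into Nextera XT libraries, which keep no strand. Line, sub-type and plate came from the labels, and 0 value columns were left unmatched. Symbols and positions came from GENCODE M21, which matched 53274 of 53379 identifiers.

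Cells were read with Python 3.11.15, numpy 2.4.6, pandas 2.3.3 and scipy 1.17.1, and the coding sequence was compared with all GENCODE transcripts on the same strand by BLAST+ 2.17.0. All 480 cells entered. CPM used gene-assigned totals. Ratios of pooled CPM have exact conditional counting intervals, and their code was tested on simulated data. No test between groups was run, since each line is 1 sample and the gene was chosen for its pattern. No doublet caller was run, and 0 pairs of cells had identical columns.

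Esr1, the pairs, the gene lists and the rules were chosen with earlier results of these data known. Named genes were Esr1, the 10 with the highest likeness in each of the 2 rankings (ribosomal protein, Gm-number and Rik genes left out of the naming), and up to 6 list members per list with 5 CPM or more in the group described. Esr2, Pgr, Gper1, Esrrg, the neighbours and the single cells described were named after their values were seen, and a few genes of the lists and rankings are not reported here. Alternatives changed the scaling, the filter on cells and genes, the pseudocount of 1 CPM, the reads that count as detection and the plates.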

Additional observations from a re-analysis of the deposited data

How the results depend on the processing

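No paired analysis was possible because each line is 1 sample and no test was run. No ratio of Esr1 between groups turned its direction under any alternative run. Ratios that rest on the 3 reads of Sftpc-TD moved with the plates. BASCs of BASCs-Tracer over AT2 cells of Sftpc-TD came to 12318 without plate 4 and 3150 without plate 5, club cells over those AT2 cells to 33960 without plate 4, 8008 without plate 5 and 4787 on plate 4 alone, and AT2 cells of BASCs-Tracer over them to 280.03 without plate 4, 71.6 without plate 5 and 60.8 without the cell with most reads. Bounds against BASCs of Sftpc-TD came to at least 244 for BASCs of BASCs-Tracer without plate 4, and for BASCs of Scgb1a1-TD to at least 49.6 without plate 4, 41.2 on plate 4 alone and 56.2 without the cell with most reads. BASCs of BASCs-Tracer over BASCs of Scgb1a1-TD came to 52.8 on plate 2 alone and 7.23 without the Scgb1a1-TD cell with most reads, and BASCs over club cells to 0.0544 in Scgb1a1-TD without that cell and to 0.396 in BASCs-Tracer without plate 2. Ciliated over club cells came to 0.140 with median-of-ratios scaling, 0.137 with totals without mitochondrial and top 10 genes, 0.00591 without plate 3 and 0.00352 without the ciliated cell with most reads. The pairs of Scgb1a1-TD BASCs with Sftpc-TD BASCs and of the 2 AT2 groups, and leaving out the cell with most reads or cells with leukocyte markers, were chosen after seeing the data. In all, 69 values of ratios stayed within 1.5-fold and 20 did not.

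The share of cells with Esr1 came to 52.5% for BASCs-Tracer, 51.9% for Scgb1a1-TD and 0% for Sftpc-TD at 3 or more reads. At 10 or more it came to 38.75% for BASCs-Tracer, 45% for Scgb1a1-TD and 0% for Sftpc-TD, which turned the order of the first 2 lines, and when thinned to 54.2% for BASCs-Tracer, 51.3% for Scgb1a1-TD and 0% for Sftpc-TD. The rank correlation with Scgb1a1 came to 0.33 in BASCs of BASCs-Tracer on plate 2, 0.14 and 0.74 in BASCs of Scgb1a1-TD on plates 3 and 4, -0.23 in its club cells on plate 4, and 0.15 in its ciliated cells on plate 3. In Sftpc-TD AT2 cells, with 3 reads, it was -0.03 and changed sign on plate 5, at 0.0041.

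Counts of genes past 2-fold moved with the pseudocount and the filter. With 10 CPM added they were 203 higher and 186 lower for BASCs of BASCs-Tracer over AT2 cells, 737 and 980 for club over AT2 cells, 1973 and 1040 for BASCs of BASCs-Tracer over BASCs of Sftpc-TD, and 721 and 239 over BASCs of Scgb1a1-TD. They were 802 and 1179 for BASCs over club cells in Scgb1a1-TD, 881 lower for ciliated over club cells, and 1713 and 1353 for BASCs over club cells in BASCs-Tracer. With no filter the first 2 pairs gave 2096 and 1986, and 2784 and 3340. BASCs of BASCs-Tracer then gave 6268 higher over BASCs of Sftpc-TD, and 4161 higher and 1716 lower over BASCs of Scgb1a1-TD. BASCs over club cells gave 4419 lower in Scgb1a1-TD and 5855 higher in BASCs-Tracer, and ciliated over club cells 3216 lower. Median-of-ratios scaling gave 3371 higher and 2943 lower for ciliated over club cells, against 5160 and 1794. The cause of these moves was not tested.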
